A study of Mus musculus with 6 samples.

Results

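The microRNAs miR-221 and miR-222 were followed in neuron-like mouse cells after a drug that triggers ferroptosis. All rows of the deposited tables whose name stem is mmu-miR-221 or mmu-miR-222 were taken, whatever the arm, which gave 4 of 685 listed mature miRNAs: mmu-miR-221-3p, mmu-miR-221-5p, mmu-miR-222-3p and mmu-miR-222-5p. Of these, 3 passed the filter on low values and were tested, and mmu-miR-222-5p did not. The cells were N2a, a mouse neuroblastoma line, and every library came from cells differentiated with 10 µM retinoic acid over 96 h. The treated group then received 5 µM RSL3 for 24 h and the control group the matching amount of its solvent DMSO, with 3 libraries in each group. RSL3 blocks GPX4, the enzyme that clears lipid peroxides from membranes. N2a is 1 tumour line, and no label ties the replicates to separate cultures; the p-values therefore reflect spread among 6 libraries that may be partly technical.

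A miRNA is cut from a hairpin whose 5′ and 3′ sides give the 5p and 3p arms, and an arm loaded into Argonaute represses mRNAs that pair with its seed. The miR-221 and miR-222 hairpins sit side by side and are thought to be made from 1 long transcript. Their 3p arms are known for repressing the cell cycle inhibitors p27 (Cdkn1b) and p57 (Cdkn1c) and the receptor tyrosine kinase Kit, and are well known in endothelial cells, smooth muscle and many tumours.

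Both hairpins lie on the minus strand of chromosome X in GRCm38. RefSeq places Mir221 at 19146294 to 19146388 and Mir222 at 19146893 to 19146971, with 504 bases between them. In the GENCODE M21 annotation 0 other genes overlapped this stretch. The nearest gene on the upstream side of this strand was the noncoding Gm14636, 10009 bases away, and on the other side the pseudogene Gm5383, 203065 bases away. The hairpins are printed from RefSeq (GRCm38.p6), 5′ to 3′, to show where the arms sit. Capitals mark the mature arms that the RefSeq table holds.
Mir221: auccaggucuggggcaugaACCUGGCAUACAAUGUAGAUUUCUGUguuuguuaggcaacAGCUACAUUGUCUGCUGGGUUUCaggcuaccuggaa
Mir222: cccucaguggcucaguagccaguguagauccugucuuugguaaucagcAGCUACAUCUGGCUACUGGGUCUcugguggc

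A mature sequence was found for 3 of the 4 entries. They are printed because the seed, bases 2 to 8 and given in capitals, joins both 3p arms and sets the 5p arm of miR-221 apart.
mmu-miR-221-3p: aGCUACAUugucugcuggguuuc
mmu-miR-222-3p: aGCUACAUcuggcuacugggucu
mmu-miR-221-5p: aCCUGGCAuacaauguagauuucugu
The mature arms lie at chrX:19146307-19146329, chrX:19146901-19146923 and chrX:19146344-19146369 in that order. The 3p arms are identical over their first 8 bases, and 11 of their 23 positions match when they are aligned from the 5′ end, so a read of full length can be assigned to one of them. Of 1679 mature miRNA names in the RefSeq table, 3 have the seed GCUACAU, and the third, mmu-miR-1928, is not among the 685 entries used here. The 5p arm of miR-221 is the only one of the 1679 with its seed.

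The shared seed pairs with ATGTAGC in an mRNA. The sense strand of the 3′ UTR was searched in 1 principal transcript per gene, the one with the longest 3′ UTR. Cdkn1b, which encodes p27, held 1 match in 3439 bases, Cdkn1c, which encodes p57, held 1 in 685 bases, and Kit held 2 in 2177 bases. Among 3′ UTR windows of the same length that start at the stop codon, 24.3%, 4.53% and 16.1% held at least 1 match, and 1.498% of windows of the length of Kit held 2 or more. The sites are shown because they are the letters that the 3p arms would pair with, and capitals mark the match.
Cdkn1b, chr6:134924416-134924443, plus strand: ctctaaaagcattggATGTAGCattgcg
Cdkn1c, chr7:143458920-143458947, minus strand: tgggacctttcgttcATGTAGCaggaac
Kit, chr5:75654977-75655004, plus strand: aatgatgggagatatATGTAGCaagact
Kit, chr5:75656508-75656535, plus strand: tttgtaaatattgaaATGTAGCaataat
In each of the 4 sites the base after the match is A. A match is a description of letters, and mRNA levels were not analysed here.

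The values are counts per unit of library size (CPM, as the deposited files name them), where the size had been scaled by edgeR's TMM factor. Reads of listed miRNAs totalled 4306460 to 6058006 per DMSO library and 3406276 to 4989380 per RSL3 library, the lowest total being that of RSL3 library 2. A single read was worth 0.157 to 0.314 CPM. The neuronal markers were present: 8 of 8 were listed, with a summed level of 5563 to 7536 CPM with DMSO and 6230 to 9121 CPM after RSL3. Of 8 endothelial, fibroblast and smooth muscle markers 8 were also listed, at 36210 to 39474 and 37081 to 38251 CPM, nearly all of it miR-143-3p. Of 8 blood markers 5 were listed, at 120 to 153 and 134 to 201 CPM, and the 3 glial markers summed to 137 to 178 and 143 to 190 CPM. All libraries came from N2a cells, so a level in these lists does not show that other cell types were present. In limma and edgeR 0 of these markers passed. In DESeq2, which called 10.5% of all miRNAs with an adjusted p, miR-126a-3p passed as higher and miR-145a-5p as lower. At an unadjusted limma p under 0.05, reached by 17.3% of all tested miRNAs, the stromal list had 1 member higher and 3 lower, and the neuronal and blood lists 1 higher each. The log2 fold changes of the stromal markers were positive in 1 and negative in 7, with a median of -0.24 (-0.29 to -0.21 under the other scalings). Both arms of miR-126a, miR-145a and miR-199a are among these 8, so they are not independent markers. The arms of miR-126a went opposite ways, at 0.38 for 3p and -0.47 for 5p, and miR-143-3p, which carries the sum, was at -0.0011. The neuronal, blood and glial medians were 0.11, 0.23 and 0.05, the last turning to -0.0065 after rescaling without the 5 most abundant miRNAs.

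The level of miR-221-3p was similar in both groups. These are bulk samples, in which fewer cells that make a miRNA and less of it per cell cannot be told apart. It was 84.5, 65.3 and 83.1 CPM with DMSO (libraries 1 to 3) and 76.2, 110.8 and 72.8 CPM after RSL3 (libraries 1 to 3), from 294 to 539 reads per library. RSL3 library 2 was the highest of all 6, the other RSL3 libraries lay within the DMSO range, and the groups overlapped. The means were 77.6 ± 10.7 CPM with DMSO and 86.6 ± 21 CPM after RSL3 (SD, n = 3 per group). The log2 fold change was 0.14 ± 0.18 (SE, limma adjusted p = 0.70), a 1.10-fold level with a 95% interval of 0.846 to 1.44. Without RSL3 library 2 the log2 fold change was -0.05 (limma adjusted p = 0.92).

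The neighbouring miR-222-3p also stayed at a similar level. It was at 74.4, 59.3 and 83.8 CPM with DMSO and 62.5, 95.1 and 75.2 CPM after RSL3, from 246 to 475 reads. DMSO library 2 was again the lowest and RSL3 library 2 again the highest, and the groups overlapped. The means were 72.5 ± 12.4 and 77.6 ± 16.4 CPM (SD, n = 3 per group). The log2 fold change was 0.09 ± 0.18 (SE, limma adjusted p = 0.82), a 1.06-fold level with a 95% interval of 0.814 to 1.39. The sign turned when either extreme library was left out, to -0.05 without DMSO library 2 and to -0.07 without RSL3 library 2.

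The 5p arm of miR-221, the less abundant product of its hairpin, did not pass either. It was at 33.7, 25.3 and 28.1 CPM with DMSO and 21.3, 33.6 and 29.5 CPM after RSL3, from 84 to 215 reads. Here DMSO library 1 was the highest and RSL3 library 1 the lowest, and the groups overlapped. The means were 29.0 ± 4.27 and 28.1 ± 6.22 CPM (SD, n = 3 per group). The log2 fold change was -0.06 ± 0.20 (SE, limma adjusted p = 0.90), a 0.960-fold level with a 95% interval of 0.716 to 1.29. Without DMSO library 1 it was 0.05, and without RSL3 library 1 it was 0.12.

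**Figure D1:**
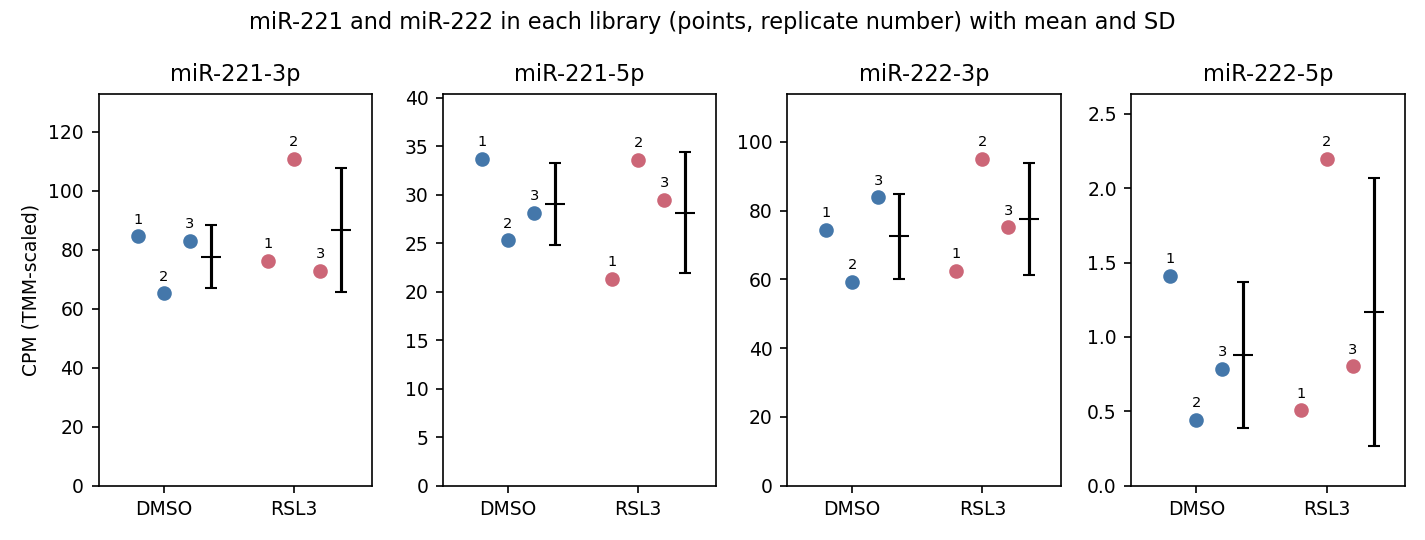
Points are the TMM-scaled CPM (y axis, from 0, a scale of its own in each panel) of the 4 entries in each library, numbered by replicate, with DMSO in blue and RSL3 in red, and bars give the mean and SD of the 3 libraries. The groups overlap in every panel, and RSL3 library 2 is the highest for miR-221-3p, miR-222-3p and miR-222-5p.

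The 5p arm of miR-222 was close to the detection limit. It had 9, 2 and 4 reads with DMSO (libraries 1 to 3) and 2, 7 and 4 reads after RSL3 (libraries 1 to 3), or 0.444 to 2.20 CPM. Where a library has no reads of a miRNA, a level worth up to 3 reads remains possible, which is 0.470 to 0.941 CPM in these libraries. This limit covers counting error only, and miR-222-5p had at least 2 reads in every library. Its level reached 1 CPM in 2 libraries, where 3 were needed for a test, so no fold change is given.

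Of the 3 members tested, 0 passed in limma, edgeR or DESeq2. The share of all miRNAs called, in either direction, was 0.751% of 666 in limma, 0.901% in edgeR and 10.5% of the 382 to which DESeq2 gave an adjusted p. At an unadjusted limma p under 0.05 there were 0 of the 3 members, beside 17.3% of all tested, and the members' unadjusted p-values of 0.44, 0.62 and 0.77 (limma, n = 3 per group) ranked 419, 507 and 572 of 666. The groups were apart in 0 of the 3, beside 24.3% of all tested. The median log2 fold change over all tested miRNAs was 0.0013. In the limma intervals each upper bound lay below a 1.5-fold rise and each lower bound above a 1.5-fold fall. Those intervals draw the variance of each miRNA towards the trend over all tested miRNAs. No interval without that step is given here, so a change of 1.5-fold in these members is not excluded. Changes inside each interval could not be told from none at this spread.

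**Figure D2:**
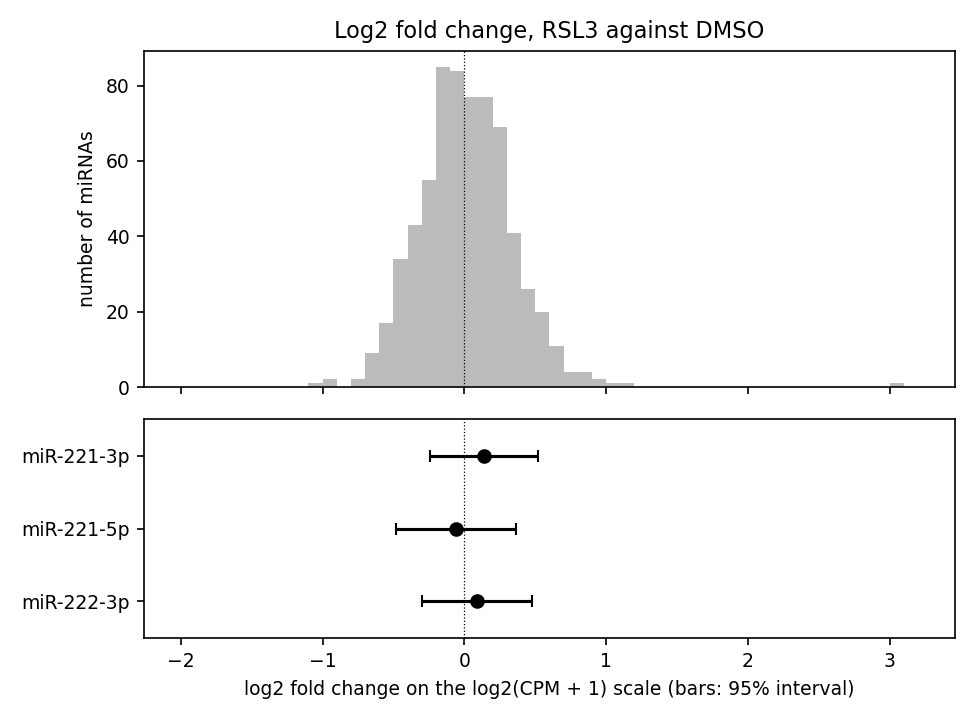
The upper panel is a histogram of the log2 fold change (x axis, log2(CPM + 1) scale) of the 666 tested miRNAs, and the lower panel shows the 3 tested members with their 95% intervals from limma. The members sit at -0.06 to 0.14, in the middle of the distribution, and each interval includes 0.

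The spread between replicates was larger than read counting alone gives. For miR-221-3p the coefficient of variation was 13.8% with DMSO and 24.2% after RSL3, where counting error at the mean read number would give 4.89% and 5.43%. For miR-222-3p it was 17.1% and 21.1% against 5.07% and 5.70%, and for miR-221-5p 14.7% and 22.1% against 7.97% and 9.42%. RSL3 library 2 was the highest library for 26.1% of the 666 tested miRNAs and the lowest for 21.2%, each a larger share than in any other library, and it also had the fewest reads. Its part in the level of miR-221-3p and miR-222-3p was not tested beyond leaving it out.

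Both 3p arms were found at nearly the same level, in the upper part of the listed miRNAs ranked by abundance. By mean level over the 6 libraries miR-221-3p ranked 245 of 685 at 82.1 CPM, miR-222-3p 248 at 75.1 CPM, miR-221-5p 324 at 28.6 CPM and miR-222-5p 658 at 1.02 CPM. A read covers a mature miRNA as a whole, so no length correction applies. Adapter ligation favours some ends, however, which limits any comparison of levels between miRNAs. The order of the 3p arms was not constant: miR-221-3p was the higher in 4 libraries and miR-222-3p in 2. Their mean difference was 7.04 CPM, and the SD over libraries was 15.7 CPM for miR-221-3p and 13.3 CPM for miR-222-3p. Each SD includes variation that both arms share between libraries, so it does not measure the spread of their difference. Just above miR-221-3p were miR-463-3p (86.2 CPM), miR-466e-5p (84.1 CPM) and miR-3963 (82.7 CPM), and between the 3p arms were miR-30c-2-3p (81.8 CPM) and the erythroid miR-451a (77.7 CPM). Just below miR-222-3p were miR-325-5p (71.9 CPM), miR-700-5p (71.5 CPM) and miR-503-5p (71.3 CPM). These neighbours differed from the member beside them by less than that member's SD over libraries, which is likewise not the spread of the difference within libraries.

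The ratio of the 3p arms asks whether the neighbouring hairpins kept their balance. The ratio of miR-221-3p to miR-222-3p was 1.13, 1.10 and 0.991 with DMSO (libraries 1 to 3) and 1.22, 1.17 and 0.968 after RSL3 (libraries 1 to 3). Library 3 of each group was the only one below 1, and the groups overlapped. Its log2 was 0.10 ± 0.10 with DMSO and 0.15 ± 0.17 after RSL3 (SD, n = 3 per group), a difference of 0.05 with a two-sided exact permutation p of 0.6, where 3 against 3 libraries allow no p below 0.1. The 3p arms were the only listed entries found with the shared seed, which could be checked for the 554 of 685 entries with a sequence. Their sum was 159, 125 and 167 CPM with DMSO and 139, 206 and 148 CPM after RSL3. The mean sums of 150 ± 22.5 and 164 ± 36.4 CPM (SD, n = 3 per group) differed by less than the spread between replicates (two-sided exact permutation p = 0.7), and the sign of the difference turned without RSL3 library 2, to -6.72 CPM.

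**Figure D3:**
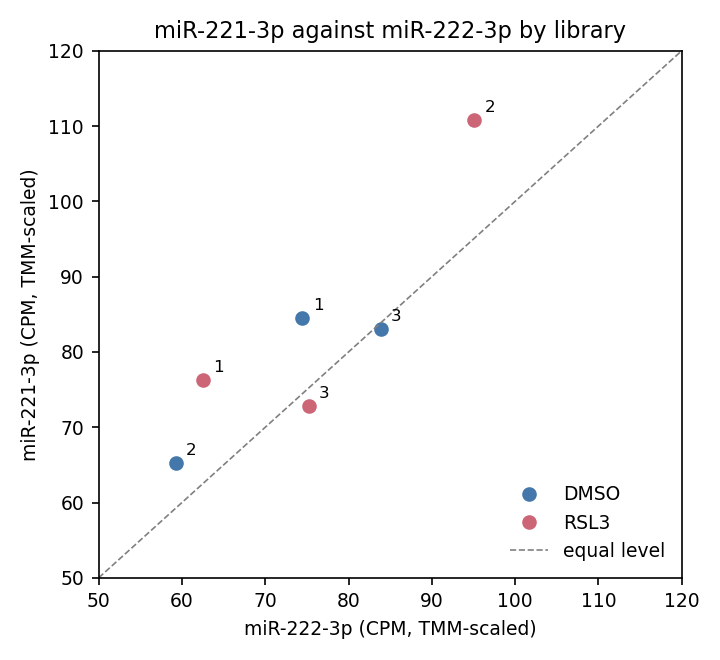
Each point is 1 library, with miR-222-3p on the x axis and miR-221-3p on the y axis, both in TMM-scaled CPM on axes that start at 50, numbered by replicate and coloured by group, and the dashed line marks equal levels. The points lie close to the line, with 4 above and 2 below it, and DMSO library 2 and RSL3 library 2 are the ends of the range.

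Across the 6 libraries the log2 levels of miR-221-3p and miR-222-3p had a Pearson's r of 0.87 (exact permutation p = 0.033, adjusted p = 0.10 over the 3 pairs of tested members) and a Spearman's rho of 0.71 (exact permutation p = 0.14, adjusted p = 0.26). Without the 2 libraries farthest from the median of miR-221-3p, DMSO library 2 and RSL3 library 2, r was 0.44 over the other 4. Those 2 are the ends of the range by choice, and leaving them out narrows the range. With 4 libraries left, the lower r therefore cannot show how far the value of 0.87 depends on those 2. The arms of the miR-221 hairpin had an r of 0.62 (exact permutation p = 0.16, adjusted p = 0.16) and a rho of 0.66 (exact permutation p = 0.18, adjusted p = 0.26), and r was 0.45 without the same 2 libraries. For miR-221-5p and miR-222-3p r was 0.75 (exact permutation p = 0.089, adjusted p = 0.13) and rho 0.54 (exact permutation p = 0.30, adjusted p = 0.30), and r was 0.90 without DMSO library 1 and RSL3 library 1. Each group has 3 libraries, too few for a correlation within a group.

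Among 416 other miRNAs with a mean of at least 10 CPM, miR-222-3p ranked 23 by its Pearson correlation with miR-221-3p, and miR-221-5p ranked 79. The patterns most like miR-221-3p over the 6 libraries were those of miR-329-5p (r = 0.98), miR-340-5p (0.97) and miR-300-3p (0.97). For miR-222-3p they were miR-434-3p (0.98), miR-184-3p (0.97) and miR-99a-5p (0.96), and for miR-221-5p they were miR-770-3p (0.99), miR-370-3p (0.90) and miR-219a-2-3p (0.88). These are descriptions over 6 points that share library depth and scaling. The log2 fold changes of these 9 ran from -0.14 to 0.23 and 0 of them passed in limma.

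The hairpins differed in how much of their 5p arm was found. In miR-221 the 5p arm held 28.5%, 27.9% and 25.3% of the reads of both arms with DMSO (libraries 1 to 3) and 21.9%, 23.3% and 28.8% after RSL3 (libraries 1 to 3). In miR-222 it held 1.86%, 0.743% and 0.930% with DMSO and 0.806%, 2.26% and 1.06% after RSL3. In each of the 6 libraries the 95% Wilson intervals of the hairpins were far apart: the lowest bound for miR-221 was 18.03% and the highest for miR-222 was 4.59%. Over all libraries the share was 26.3% (810 of 3081 reads, 95% Wilson interval 24.8% to 27.9%) for miR-221 and 1.32% (28 of 2120 reads, 0.915% to 1.90%) for miR-222. These intervals cover counting error only, since reads amplified by PCR without molecular identifiers are not independent molecules.

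**Figure D4:**
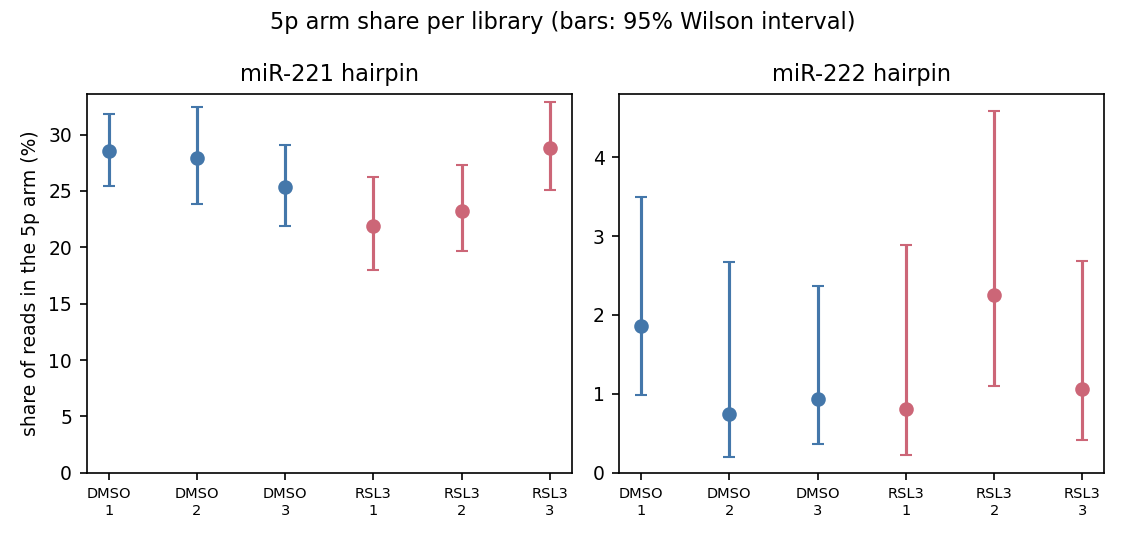
The share of a hairpin's reads that came from its 5p arm (y axis, percent, from 0) is shown for each library, with DMSO in blue and RSL3 in red, bars giving the 95% Wilson interval of counting error, and a scale of its own in each panel. In miR-221 the share ran from 21.9% to 28.8% and in miR-222 from 0.743% to 2.26%, with overlapping groups in both.

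Among 174 hairpins with both arms listed and at least 10 CPM in sum in every library, 44 had a larger share in their minor arm than miR-221 and 138 a larger share than miR-222. In 93 of the 174 the minor arm held under 10%. The arm balance of miR-221 was then compared between the groups over the 182 precursors with both arms tested. Its log2 ratio of 5p to 3p was -1.39 ± 0.12 with DMSO and -1.59 ± 0.27 after RSL3 (SD, n = 3 per group). The change was -0.20 ± 0.20 (SE), with a 95% interval of -0.64 to 0.25. It did not pass in limma (adjusted p = 0.65, unadjusted p = 0.35), where 1.65% of the 182 precursors passed and 22.5% had an unadjusted p under 0.05. The values in RSL3 libraries 1 and 2 were below all DMSO values and that in RSL3 library 3 above them. For miR-222, where a test over precursors needs more reads of the 5p arm, the share was 1.18% ± 0.60 with DMSO and 1.37% ± 0.78 after RSL3 (SD, n = 3 per group), from too few reads for a comparison.

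Other growth-associated miRNAs and those of the same chromosome were counted as well. Of 21 growth-associated entries 0 passed in DESeq2, edgeR or limma. At an unadjusted limma p under 0.05 there were 0 higher and 1 lower (beside 17.3% of all tested), and the list had a median of -0.03 (0.0076 under median centring), beside 0.0013 over all tested miRNAs. The most abundant were miR-21a-5p, at 32047 ± 2817 CPM with DMSO and 39494 ± 3760 CPM after RSL3 (SD, n = 3 per group; limma adjusted p = 0.29), and miR-25-3p (log2 fold change -0.12, limma adjusted p = 0.67).

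A precursor on chromosome X was found for 85 entries, the members included, after 682 of 685 entries had been placed on a chromosome by name. Of these 83 were tested, 0 passed in limma or edgeR, 7 were higher and 3 lower at an unadjusted limma p under 0.05 (beside 17.3% of all tested), and the median log2 fold change was -0.02 (0.02 under median centring). These entries are not all independent, as miR-465a-3p and miR-465b-3p had the same values. An entry was counted if any of its precursors lay on chromosome X, so some may also come from other chromosomes. DESeq2, which called 10.5% of all miRNAs with an adjusted p, called miR-325-3p and miR-542-3p higher and miR-374b-5p lower, where limma's adjusted p-values were 0.063, 0.095 and 0.095. The most abundant X-linked entries were miR-881-3p (209293 CPM) and miR-465c-5p (39575 CPM) as means over the 6 libraries, far above the 82.1 CPM of miR-221-3p.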

How the data were processed

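Small RNA libraries of 3 DMSO and 3 RSL3 samples were grouped by their labels. The submitters' processing notes name cutadapt, Bowtie, edgeR and the build GRCm38. Not given in the sources used here are their versions and settings and how reads matching more than 1 miRNA were counted. The deposited signal, named CPM by the authors, consisted of whole multiples of a step (100% of values, tolerance 0.01), so reads were recovered by division. The library sums, 949375 to 1068892, show TMM-scaled CPM, whereas plain CPM had been assumed when the tests were set. Only listed miRNAs are counted, which hides any change in total miRNA per cell.

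The main test was limma 3.58.1 (R 4.3.3) with a variance trend on log2(CPM + 1), which understates changes of low miRNAs, two-sided, with Benjamini-Hochberg adjustment at 0.05 over the 666 miRNAs that reached 1 CPM in at least 3 libraries. The arm ratio, log2((5p + 1)/(3p + 1)), was tested likewise over precursors. Count tests on the recovered reads, edgeR 4.0.16 (quasi-likelihood) and DESeq2 1.42.0, were alternatives, and DESeq2 gave no adjusted p to 284 miRNAs. Single values per library had exact permutation tests. Other alternatives were the pseudocount, filter, scaling, variance model, replicate block and leaving out each library. The fits were also run on simulated data with a single assumed spread for all miRNAs, which does not give their power for the members. Named besides the members are entries sharing a seed, the 3 nearest in level on each side of the 3p arms, the 3 most like each tested member, and the called and 2 most abundant entries of each list (1 list is not reported here); the markers and the entries that only DESeq2 called were named after their values were seen. The members and lists were chosen with earlier results of these data known. Positions are 1-based.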

Additional observations from a re-analysis of the deposited data

How the results depend on the processing

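The 3 tested members stayed short of the threshold in all 18 alternatives each, with adjusted p-values of 0.56 to 0.98 for miR-221-3p, 0.66 to 0.97 for miR-221-5p and 0.50 to 0.94 for miR-222-3p. Their log2 fold changes kept their sign under every alternative other than leaving out a library, at 0.09 to 0.18, -0.11 to -0.02 and 0.04 to 0.17. With a library left out they ran from -0.05 to 0.25, -0.19 to 0.12 and -0.07 to 0.23: miR-221-3p turned to -0.048 without RSL3 library 2, miR-222-3p to -0.046 without DMSO library 2 and -0.065 without RSL3 library 2, and miR-221-5p to 0.05 without DMSO library 1 and 0.12 without RSL3 library 1. The arm ratio of miR-221 ran from -0.35 to -0.10 and did not pass. The log2 ratio of the 3p arms ran from -0.015 to 0.15, turning negative without DMSO library 3 (-0.0071) and without RSL3 library 1 (-0.015), and the summed 3p level differed by -6.72 to 26.8 CPM. The exact tests cannot pass at this size.

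Over all miRNAs, 4 were called higher and 1 lower. The lower count was 3 with a 10 CPM filter, 0 with median centring and 12 after rescaling without the 5 most abundant miRNAs. Higher and lower counts were 1 and 0 without a variance trend, 4 and 2 in edgeR and 19 and 21 in DESeq2. With a library left out they ran from 1 to 14 and from 0 to 12. For these counts the cause was not tested. The labels do not say that the replicate numbers mark a shared culture, so the numbers were not taken as pairs. Between libraries of the same number, deviations from the group means had an r of -0.35, -0.33 and -0.19 over 666 miRNAs. With the replicate number as a block the counts were 1 and 0, the members' log2 fold changes were 0.14 for miR-221-3p, -0.06 for miR-221-5p and 0.09 for miR-222-3p, with adjusted p-values of 0.83, 0.93 and 0.89, and the arm ratio change was -0.20. Both 3p arms rest on at least 246 reads per library, while miR-222-5p rests on 2 to 9.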
